A study of Mus musculus with 19 samples.

Results

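The genes described here are 37 protein-coding genes of DNA replication and mitosis, out of 21887 protein-coding genes on mouse chromosomes 1 to 19, X and Y. They were chosen by name, not by a measured value, though with earlier results of these data known. All 37 were found in the GRCm38.p6 gene table. By role they are 10 genes of origin licensing, 5 of DNA synthesis, 4 of the E2F and Rb switch, 7 mitotic cyclins and kinases, 3 of the spindle checkpoint and its target, 6 of chromosomes and the spindle, and Myc with Mycn.

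Dividing forebrain progenitors pass through a fixed cycle. In G1 the origin recognition complex, Cdc6 and Cdt1 load the MCM helicase on DNA, cyclin-dependent kinases then release E2F factors from Rb, and E2F switches on the genes of DNA synthesis. Genes of mitosis are switched on later, through CCAAT boxes and a short element called the cell cycle genes homology region (CHR), and the anaphase-promoting complex destroys their products as cells divide. Promoters of such genes are usually open in cycling cells, but an open promoter does not show that its gene is transcribed.

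The data are bulk ATAC-seq, which maps accessible chromatin by where a transposase can cut. The cells carried Prom1, a progenitor surface protein, and were taken from forebrains of mouse embryos at day 14 with magnetic beads. The series asks how retinoic acid (RA) from the meninges bears on neurogenesis. The 19 libraries form 4 groups by title: 6 mutants on an RA diet, 4 mutants without it, 5 controls on the RA diet and 4 controls without it. Mutants are labelled Foxc1 hith/LacZ, which joins a hypomorphic allele with a LacZ insertion, and controls are labelled Foxc1 WT. Foxc1 is a transcription factor needed for the forebrain meninges to form. Mutant 1 carries the genotype label Foxc1 WT against its title. Strain, sex and whether embryos were pooled are not given in the labels. Separate animals are not named either, so each p-value reflects the scatter of these samples alone, which may be technical.

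Each library is a list of peak summits with a score, the authors' -log10 q value. The lists held 29112 to 122591 summits, with medians of 67034.5 in mutants on the diet, 108352 in mutants, 79301 in controls on the diet and 97018 in controls. Read depth is unknown, and summit number stands in for it, though it tracks the scores only in part. The shortest list, 29112 summits in mutant 4 on the diet, had a median score of 7.33. The longest, 122591 in control 4, had one of 17.5. Yet mutants 1 and 3 held 108298 and 108407 summits, with median scores of 15.5 and 8.19. Mutant 4 had the lowest median score of the 19 libraries, 6.44. For counts, each list was cut to its 29112 top scores, as many as the shortest list holds (mutant 4 on the diet), and these are called matched summits. Mutants 3 and 4 stood apart: across genes, ranks of their gene-end summits had Spearman correlations of 0.713 to 0.845 with the other 17 libraries, against 0.878 to 0.981 within a main set of 13. Mutant 1, mutant 6 on the diet, control 2 and control 2 on the diet come from 4 groups and had correlations of 0.889 to 0.94 among themselves, against 0.784 to 0.948 with those 13. The median correlation of mutant 6 on the diet with all other libraries was 0.812, near the 0.798 and 0.796 of mutants 3 and 4. Of 12 neural progenitor markers, 9 to 12 had a gene-end summit per library, against 3 to 5 of 8 neuron, 1 or 2 of 8 endothelial, 1 to 3 of 8 microglial, 0 to 2 of 8 erythroid and 2 to 4 of 8 meningeal fibroblast markers. Foxc1 itself had a matched gene-end summit in 1 of 6 mutants on the diet, 3 of 4 mutants, 0 of 5 controls on the diet and 1 of 4 controls, which does not check the genotype.

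Promoter sequences were at hand in RefSeq's GRCm38.p6 table for 31 of the 37 genes, as 34 windows of 300 bases (250 before and 50 after a start site). Gmnn, Aurkb, Mcm4, Rb1, Ccna2 and Myc are not in it. The 7 windows printed here belong to genes whose summit ranks are compared in detail or that show the motifs most plainly, and all 19 libraries had their best gene-end summit inside each. They run from 5′ to 3′ on the gene's strand, with E2F-type, CHR and CCAAT matches in capitals.
Mcm6, chr1:128359656-128359955, minus strand: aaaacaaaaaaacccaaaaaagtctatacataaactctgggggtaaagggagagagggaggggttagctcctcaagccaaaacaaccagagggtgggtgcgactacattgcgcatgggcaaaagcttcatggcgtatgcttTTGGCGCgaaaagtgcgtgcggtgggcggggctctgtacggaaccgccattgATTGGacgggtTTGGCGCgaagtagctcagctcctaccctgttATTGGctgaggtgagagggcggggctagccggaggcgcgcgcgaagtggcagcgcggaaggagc
Pcna, chr2:132253131-132253430, minus strand: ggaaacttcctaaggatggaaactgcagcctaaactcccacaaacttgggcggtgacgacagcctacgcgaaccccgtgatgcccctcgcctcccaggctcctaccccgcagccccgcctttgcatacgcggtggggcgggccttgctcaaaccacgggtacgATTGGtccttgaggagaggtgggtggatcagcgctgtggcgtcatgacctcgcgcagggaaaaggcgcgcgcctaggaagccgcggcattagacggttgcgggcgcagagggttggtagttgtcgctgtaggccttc
E2f3, chr13:29986014-29986313, minus strand: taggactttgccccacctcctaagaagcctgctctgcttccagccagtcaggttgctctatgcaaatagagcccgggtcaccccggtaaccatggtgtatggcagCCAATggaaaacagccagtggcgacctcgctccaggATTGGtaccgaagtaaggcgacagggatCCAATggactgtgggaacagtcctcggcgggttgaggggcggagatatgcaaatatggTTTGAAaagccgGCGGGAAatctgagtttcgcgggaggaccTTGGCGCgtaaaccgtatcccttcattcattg
Cdk1, chr10:69352863-69353162, minus strand: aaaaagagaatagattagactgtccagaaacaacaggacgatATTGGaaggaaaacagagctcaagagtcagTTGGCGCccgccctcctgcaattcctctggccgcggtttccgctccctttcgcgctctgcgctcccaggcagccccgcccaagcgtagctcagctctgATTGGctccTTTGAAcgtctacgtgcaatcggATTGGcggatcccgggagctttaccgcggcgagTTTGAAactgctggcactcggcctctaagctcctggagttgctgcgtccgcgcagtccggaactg
Top2a, chr11:99024140-99024439, minus strand: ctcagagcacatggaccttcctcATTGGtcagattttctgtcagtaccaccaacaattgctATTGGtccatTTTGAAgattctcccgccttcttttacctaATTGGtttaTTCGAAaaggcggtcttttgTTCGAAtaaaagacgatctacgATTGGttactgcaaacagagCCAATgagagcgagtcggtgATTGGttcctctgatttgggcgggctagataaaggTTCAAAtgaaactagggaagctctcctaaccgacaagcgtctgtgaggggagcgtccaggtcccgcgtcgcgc
Cenpa, chr5:30666636-30666935, plus strand: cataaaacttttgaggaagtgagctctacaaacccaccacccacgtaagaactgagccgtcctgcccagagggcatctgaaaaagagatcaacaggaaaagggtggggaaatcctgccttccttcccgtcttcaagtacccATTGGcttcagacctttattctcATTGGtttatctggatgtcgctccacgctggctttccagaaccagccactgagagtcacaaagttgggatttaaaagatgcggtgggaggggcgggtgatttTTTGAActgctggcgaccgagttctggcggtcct
Cenpe, chr3:135212313-135212612, plus strand: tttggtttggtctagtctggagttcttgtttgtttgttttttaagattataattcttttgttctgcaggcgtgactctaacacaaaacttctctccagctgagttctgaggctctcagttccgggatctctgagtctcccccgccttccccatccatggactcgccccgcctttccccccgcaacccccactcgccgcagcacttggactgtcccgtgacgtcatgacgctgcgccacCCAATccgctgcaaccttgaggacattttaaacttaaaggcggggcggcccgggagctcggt

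Motifs were counted on both strands as exact letters: TTCCCGC or TTGGCGC as E2F-type, TTTGAA or TTCGAA as CHR, CCAAT, and the E-box CACGTG that Myc and Max bind. An E2F-type match overlapped a CCAAT match in Ccnb1 and Mcm7, and TTCGAA reads the same on both strands. Of the 34 windows, 14 (41.2%) held an E2F-type match, against 8.69% of all 21263 windows of the table. A CHR match stood in 17 (50%), against 17.6%, and a CCAAT match in 27 (79.4%), against 38.2%. The E-box stood in 2 (5.88%), of Tyms and E2f3, against 7.84% of all windows. By gene, E2F-type matches lay in 13 promoters, among them 4 of the MCM genes (Mcm3, Mcm5, Mcm6 and Mcm7), Cdc6, Cdt1 and Rrm1, but also Cdk1, Ccnb1 and Mki67. CHR matches lay in 17, among them Cdc20, Plk1, Aurka, Bub1, Bub1b, Ccnb2, Cenpa, Kif11 and Top2a. The printed windows show both kinds: Mcm6 has E2F-type matches at -109 and -46 from its start, Top2a has 4 CHR matches and no E2F-type match, and Cdk1 has an E2F-type match at -178 with CHR matches at -71 and -15. The Pcna and Cenpe windows hold a CCAAT match and neither of the other 2 motifs. GC content was similar (median 57.3% in these windows, 56.3% in all), while the number of CG steps was higher (23.5 against 13). A match is a description of the letters, not a measured binding site, and a window need not hold the open site. Among genes with an E2F-type match, the best summit within 1 kb of a gene end lay inside the window in 0 libraries for Cdc6. It did so in 10 for Mycn and in all 19 for Mcm3, Mcm5, Mcm6, Cdt1 and Rrm1.

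**Figure D1:**
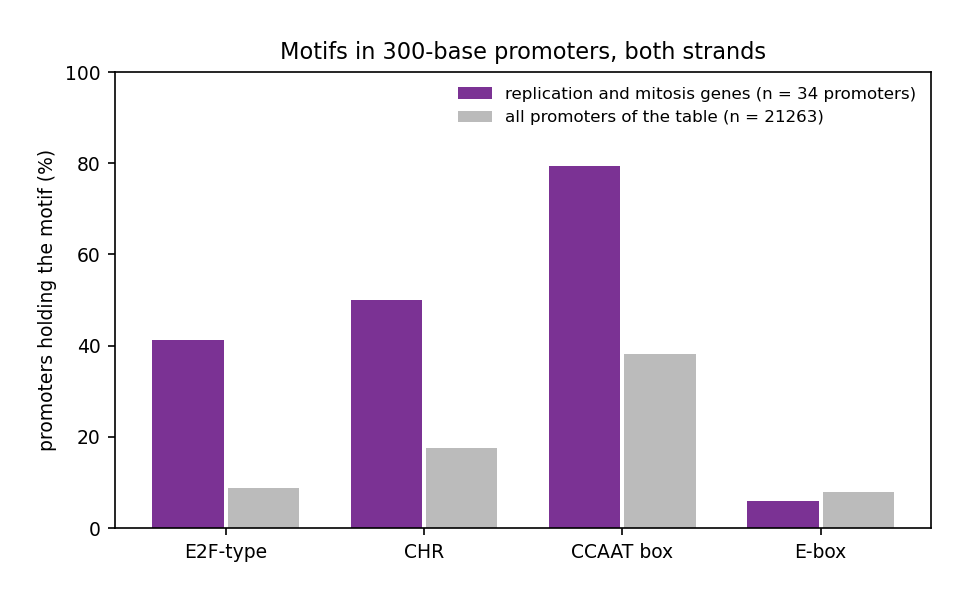
Percentage of 300-base promoter windows that hold each motif (y axis, %), for the 34 windows of the replication and mitosis genes (purple) and all 21263 windows (grey). E2F-type, CHR and CCAAT matches are more frequent in the purple bars (41.2%, 50% and 79.4%), the E-box is not (5.88% against 7.84%).

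Nearly all of these promoters were open in every library. In bulk libraries a weaker site and fewer cells with an open site cannot be told apart, which holds for all values that follow. Counting summits no more than 1 kb from either end of a gene (gene-end summits), 31 of 37 genes (83.8%) had a matched one in all 19 libraries, against 36.6% of all protein-coding genes. Over whole deposited lists it was 32 (86.5%), against 43.1%. Each library had such a summit for 32 to 35 of the 37 among its matched summits. Ranks were then used as the measure of how strong a summit was within its library, with 1 the best-scoring. The median over genes of the median rank was 4713 for the 32 genes ranked in every library, against 6625 for the 9438 genes of which that holds. E2f3 (median rank 186), Mcm4 (266), Ccna2 (552) and Pcna (652) were nearest the top of the lists. E2f2 (27742), Rb1 (27425), Aurkb (14910) and Tyms (14905) were farthest. In the 27 genes with a start in the promoter table, 25 (92.6%) had the median summit within 300 bp of it, against 82.5% of all such genes.

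**Figure D2:**
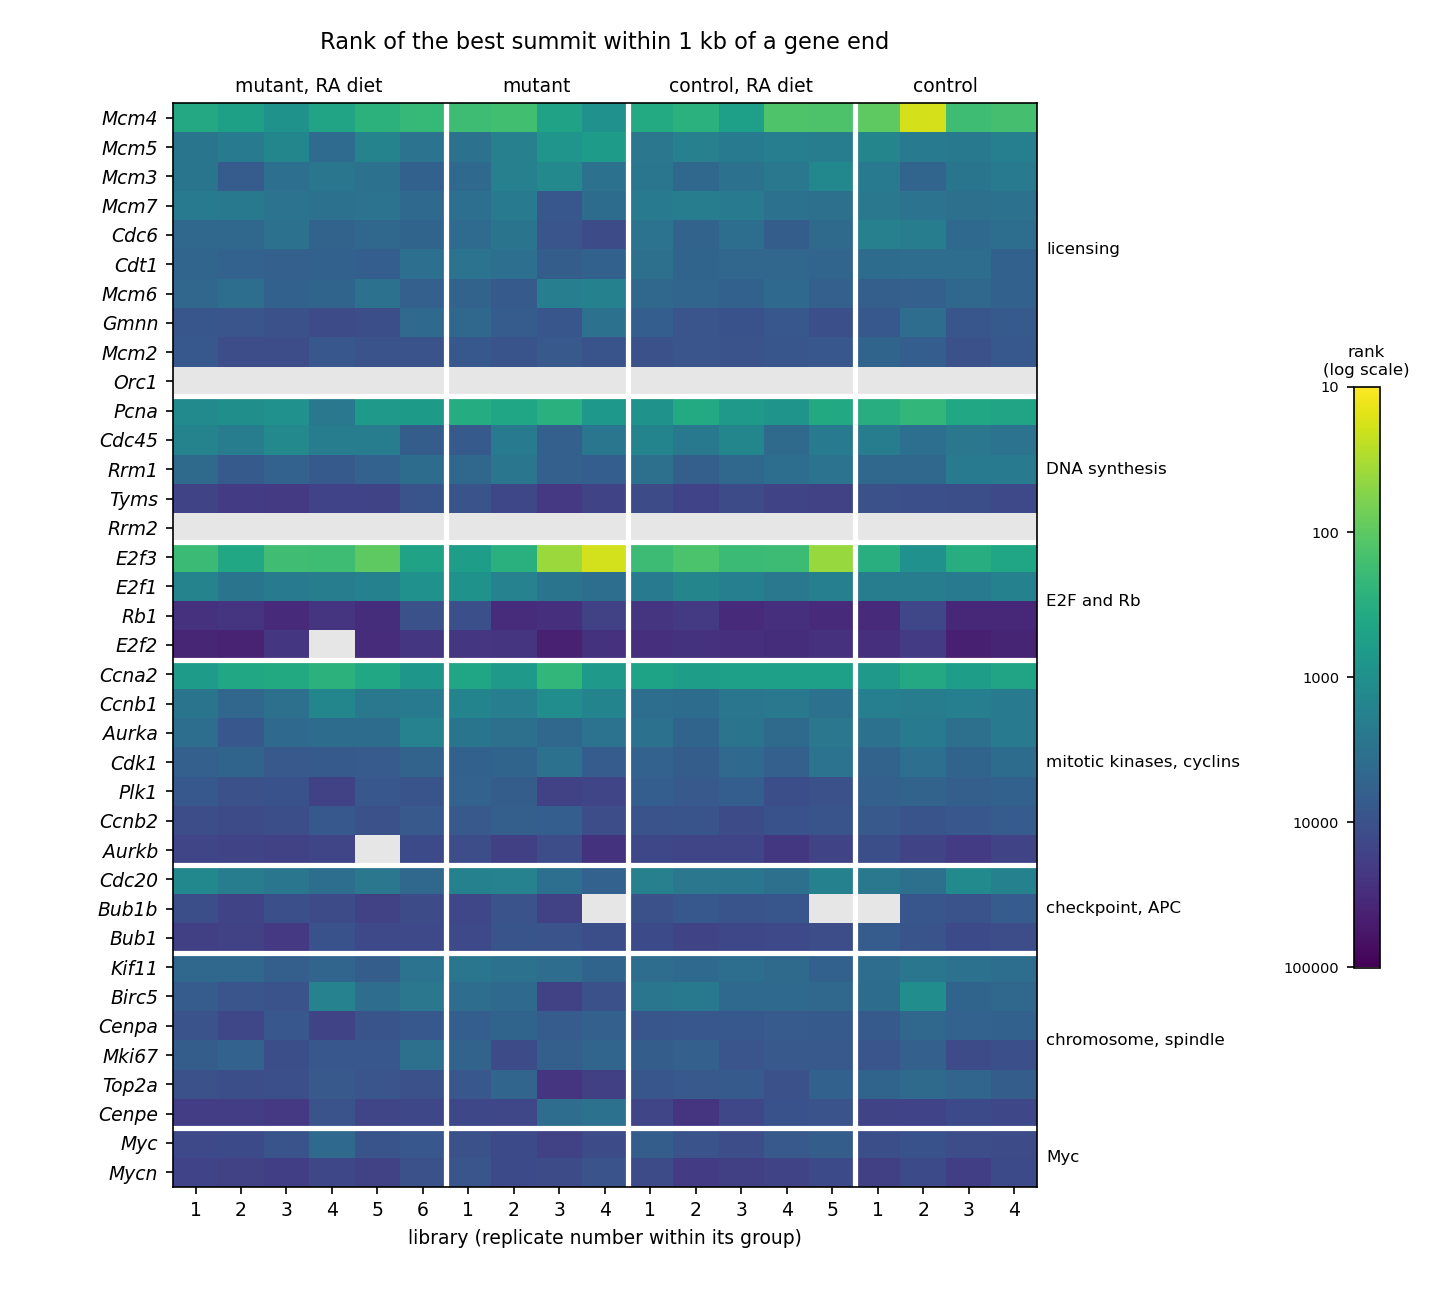
Rank of the best gene-end summit for the 37 genes (rows, by role) in the 19 libraries (columns, by group), with colour on a log scale from light (top of the list) to dark, grey where there was none. Rows differ more than columns: E2f3, Mcm4, Ccna2 and Pcna are light throughout, E2f2 and Rb1 dark, Orc1 and Rrm2 grey.

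The exceptions were few. Orc1, a subunit of the origin recognition complex, and Rrm2, the small subunit of ribonucleotide reductase, had no gene-end summit in any library. For Orc1 this follows from the gene table, whose ends differ from the start in the promoter table: all 19 libraries had a summit at -139 to -135 bases from that start, with a median rank of 1992. For Rrm2 the nearest summit to its start lay 26714 to 26920 bases downstream in all 19 libraries. For 6 of the 32 genes (18.8%), the summit lay within 1 kb of a neighbour's end too, against 27.1% of all genes. These are Pcna with Cds2, Mcm4 with Prkdc, Mcm7 with Ap4m1, Cdc45 with Ufd1, Aurka with Cstf1 and Ccna2 with Bbs7. At such an end the summit cannot be given to 1 gene, which holds for every value of these 6 genes below.

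No gene of the set passed an adjusted p of 0.05 between any groups. In a limma fit of log2 rank over 9438 genes, 0 of 32 genes were called in each of 5 contrasts between groups and in the interaction of genotype and diet, where the share called over all genes was 0% in 5 of these 6 and 0.0106% (Cwc22, a splicing factor) for mutants on the diet against mutants. The values that follow are log2 differences in rank, positive where the group named first lay closer to the top, with limma's SE and its Benjamini-Hochberg adjusted p. At an unadjusted p under 0.05 stood 7 of 32 genes for mutants against controls (15.5% of all genes), 8 for mutants on the diet against mutants (16.4%), and 8 for mutants on the diet against controls (11.3%). There were 2 for controls on the diet against controls (4.33%), 0 for mutants against controls both on the diet (1.42%) and 3 for the interaction (5.55%). The lowest adjusted p of any of the 32 was 0.115, for Cenpa in mutants on the diet against mutants.

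Over the 32 genes together, most differences were negative in each contrast. The E2F and Rb genes differed: 3 of 3 were positive for mutants against controls (median 0.47) and for mutants on the diet against controls (median 0.22). For mutants on the diet against mutants, 2 of these 3 were negative. Myc and Mycn had opposite signs in each contrast. For mutants on the diet against controls, 23 of 32 differences were negative, with a median of -0.40, against -0.11 over all genes. Against mutants, 23 were negative for mutants on the diet, with a median of -0.24 against 0.02. For controls on the diet against controls 23 were negative (median -0.18 against -0.04), and for mutants against controls 19 (median -0.12 against -0.13). Against controls on the diet, 23 were negative for mutants on the diet, with a median of -0.16 against -0.07. These contrasts share samples, so the counts are not separate pieces of evidence. The number of summits also differed between these groups, with its lowest median in mutants on the diet. With that number as a covariate, 1 of the 32 genes passed, Cenpe in mutants on the diet against mutants (-1.64, adjusted p = 0.0311), in a fit that called 196 of all 9438 genes there. Groups did not overlap, with the group named first farther from the top, for 5 of 32 genes in mutants on the diet against controls (Top2a, Pcna, Mcm4, Plk1 and Cenpa), where the share over all genes was 3.38%, and for none in the other direction (0.858%). For controls on the diet against controls this held for 3 genes farther from the top (Ccnb1, Ccnb2 and Plk1; 3.43% of all genes) and 1 closer to it (E2f3; 1.76%). Between mutants on the diet and mutants it held for Cenpa, farther from the top (1.12% of all genes), and no gene closer to it (0.668%). It held for none of the 32 between mutants and controls, on the diet (0.297% and 0.053% of all genes) or off it (1.75% and 1.2%).

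**Figure D3:**
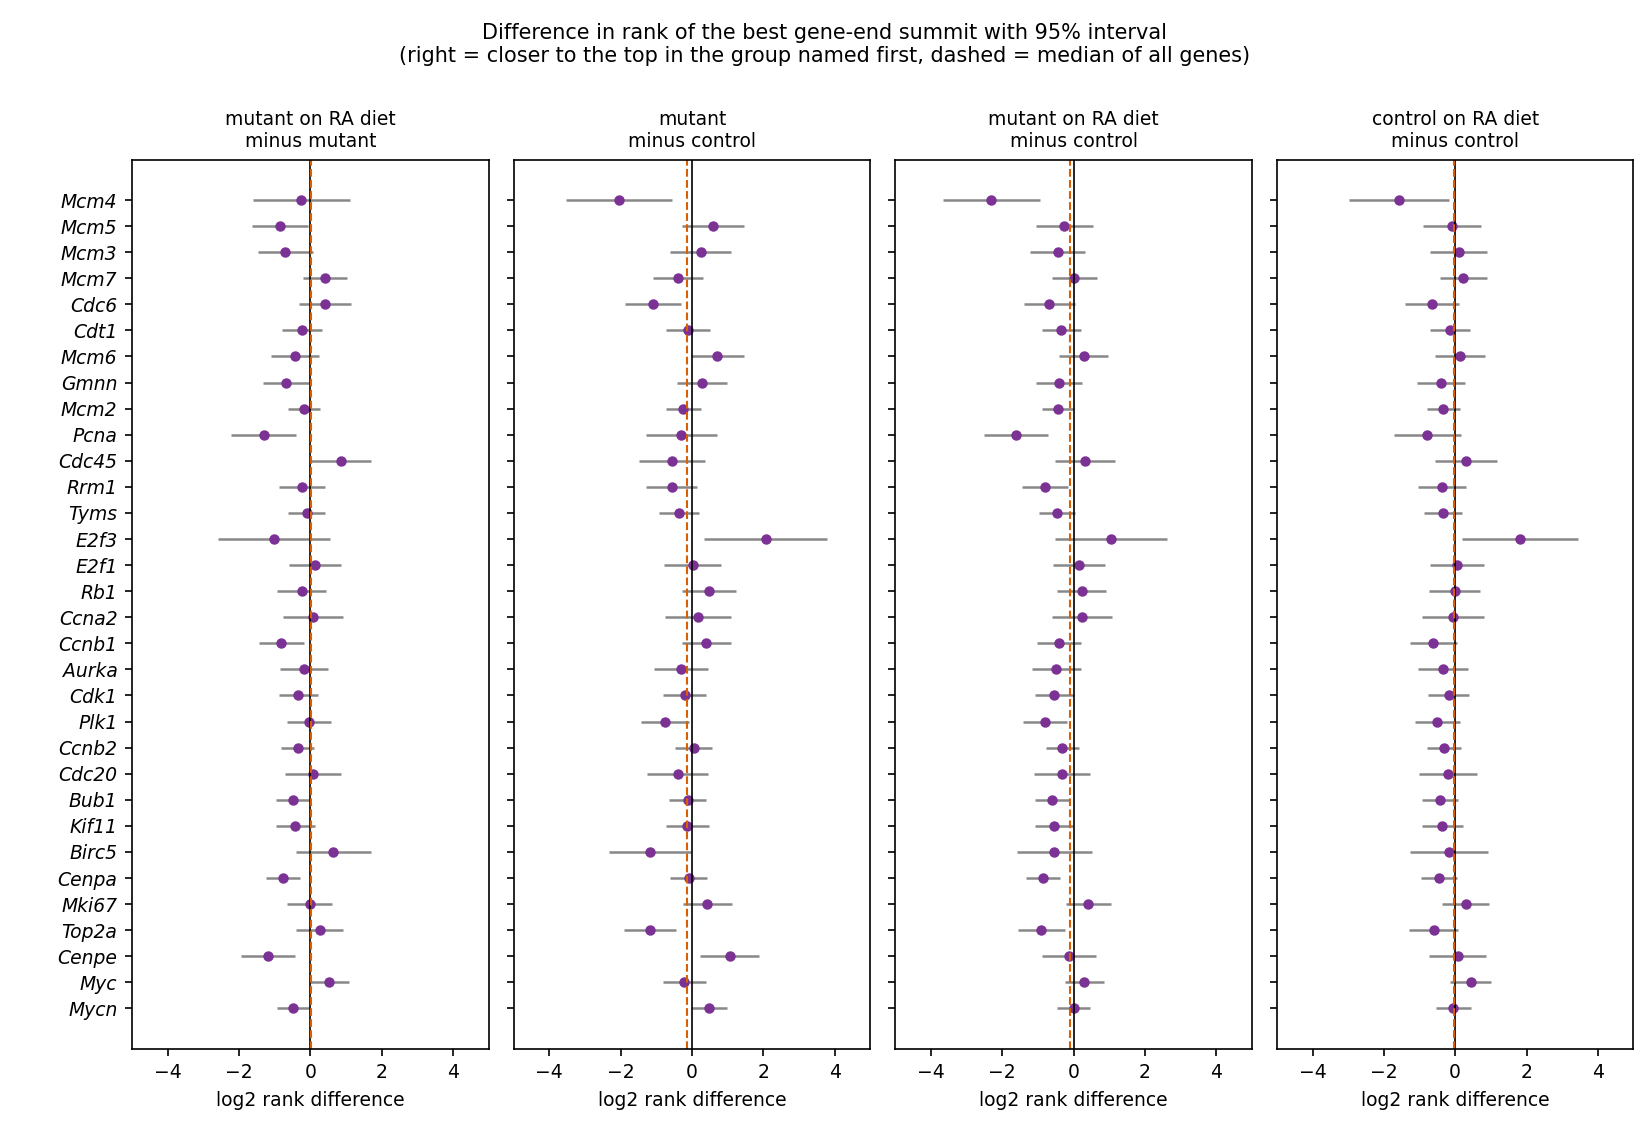
Log2 difference in rank (x axis) with its 95% interval for the 32 genes ranked in every library (rows, by role), in 4 contrasts, with the median over all 9438 genes as a dashed line. Most intervals cross 0; those of 8 genes, Mcm4, Pcna, Rrm1, Plk1, Bub1, Kif11, Cenpa and Top2a, lie left of it for mutants on the RA diet against controls.

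Licensing genes had a gene-end summit throughout, except Orc1 by the gene table. Mcm2 to Mcm7 are the 6 subunits of the replicative helicase, and their median ranks ran from 266 (Mcm4) through 2096 (Mcm5), 2808 (Mcm3), 3028 (Mcm7) and 5081 (Mcm6) to 8737 (Mcm2). Mcm4 ranked 209 to 876 (median 423.5) in the 6 mutants on the diet and 175, 165, 494 and 956 in mutants. In controls on the diet it ranked 360, 278, 544, 127 and 129, and in controls 99, 18, 173 and 149. Every mutant library on the diet thus lay farther from the top than every control, while the other groups overlapped with controls. The difference was -2.31 (SE 0.66, adjusted p = 0.225) for mutants on the diet against controls, -2.05 (SE 0.72, adjusted p = 0.242) for mutants against controls and -1.58 (SE 0.68, adjusted p = 0.999) for controls on the diet against controls. Without mutants 3 and 4 the second of these was -1.05 (adjusted p = 1). Because its end is shared with Prkdc, a DNA repair kinase, this summit may belong to either gene. Mcm2 ranked 7968 to 11443 (median 9451.5) in mutants on the diet, 7831, 9111, 7766 and 9265 in mutants, 10125, 8737, 9410, 8491 and 8153 in controls on the diet and 5122, 6347, 10127 and 7851 in controls. All 4 groups overlapped, and its lowest adjusted p was 0.484, for mutants on the diet against controls. Mcm3 also overlapped, with ranks of 2718 to 6837 (median 3355) in mutants on the diet and of 2679, 4563, 3096, 2512 and 1382 in controls on the diet (difference -0.55, SE 0.35, adjusted p = 1).

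Cdc6, the loader of the MCM helicase, ranked 3104 to 5381 (median 4466.5) in mutants on the diet. Mutants ranked 4035, 2856, 8867 and 11917, controls on the diet 3046, 5281, 3596, 6610 and 4092, and controls 1824, 2124, 4267 and 3540. The mutants split, with mutants 3 and 4 farthest from the top of all 19 libraries and mutants 1 and 2 among the controls. The difference of mutants from controls was -1.09 (SE 0.38, adjusted p = 0.242), and the interaction was 1.07 (SE 0.51, adjusted p = 0.797). Without mutants 3 and 4 the first was -0.30 (adjusted p = 1), and without mutant 2 it was -1.44 (adjusted p = 0.0276), in a fit that called 740 of all genes in this contrast. Its summit stood at -429 to -411 bases from the start in the promoter table, at the end given in the gene table. Cdt1, the partner of Cdc6 in loading, and Gmnn, which inhibits Cdt1, had median ranks of 5012 and 8503, with at most 1 and 2 matched summits in any library.

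For DNA synthesis, Pcna is the sliding clamp of the DNA polymerases. It ranked 652 to 2463 (median 979) in the 6 mutants on the diet and 330, 445, 288 and 749 in mutants. Controls on the diet ranked 872, 363, 712, 855 and 371, and controls 325, 226, 413 and 460. Mutants on the diet did not overlap with controls, and only mutant 4 reached into their range among mutants. The difference was -1.61 (SE 0.44, adjusted p = 0.222) for mutants on the diet against controls and -1.31 (SE 0.44, adjusted p = 0.146) for mutants on the diet against mutants. Against controls on the diet it was -0.83 (SE 0.41, adjusted p = 1). The summit lay at -152 to -16 bases from the start in the window printed above and is shared with Cds2, which makes CDP-diacylglycerol for phospholipids. Rrm1, the large subunit of ribonucleotide reductase, Cdc45, a helicase cofactor, and Tyms, which makes dTMP, had median ranks of 4414, 2366 and 14905.

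In the E2F and Rb group the genes ranked far apart. E2f3, an activating E2F factor, was among the strongest promoters of every library. It ranked 97 to 495 (median 181) in mutants on the diet, 600, 290, 40 and 19 in mutants, 183, 134, 186, 181 and 41 in controls on the diet and 313, 950, 321 and 433 in controls. All 5 controls on the diet were closer to the top than all 4 controls (difference 1.82, SE 0.79, adjusted p = 0.999). Mutants 3 and 4 were the closest to the top of all 19 libraries and mutants 1 and 2 lay near the controls, with a difference from controls of 2.07 (SE 0.84, adjusted p = 0.262), and the interaction was -2.84 (SE 1.10, adjusted p = 0.797), or -0.88 (adjusted p = 0.999) without mutants 3 and 4. E2f1, the factor best known for driving S phase genes, ranked 942 to 2893 (median 1937) in mutants on the diet, 899, 1704, 2859 and 3534 in mutants, 2199, 1515, 1871, 2503 and 1861 in controls on the diet and 2078, 2081, 2219 and 1744 in controls. No contrast of E2f1 exceeded 0.15 in size, and the 95% interval for mutants on the diet against controls was -0.58 to 0.88.

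E2f2 and Rb1 were the weak members of this group. E2f2, the third activating E2F, had a matched gene-end summit in 2 of 6 mutants on the diet, 3 of 4 mutants, 4 of 5 controls on the diet and 2 of 4 controls, and ranked 20330 to 44402 in the 18 libraries with a deposited one. A second region at -0.181 kb from another of its starts in the promoter table was matched in 17 of 19 libraries, with a median rank of 17178. Rb1, which holds E2F factors in check, had one in 4 of 6 mutants on the diet, 3 of 4 mutants, 2 of 5 controls on the diet and 1 of 4 controls. Its ranks were 10212 to 32053 (median 25940.5) in mutants on the diet, 10520, 31312, 27425 and 16382 in mutants, 24306, 20588, 32413, 29407 and 32870 in controls on the diet and 31866, 13904, 34764 and 35416 in controls. The lowest ranks came from mutant 6 on the diet, mutant 1 and control 2. These are 3 of the 4 libraries set beside each other above, whose correlations among themselves overlapped with those to the main set. By Fisher's exact test on presence, neither gene passed in any contrast, with exact p from 0.242 to 1 and an adjusted p of 1. The share called was 0% of the 2621 to 4062 genes tested, with 2 to 66 of them at an unadjusted p under 0.05. With 4 against 4 libraries the smallest p this test can give is 0.0286, and with 6 against 5 it is 0.00216. After adjustment, with so few genes at a low p, even full separation of 2 groups could not pass.

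Mitotic cyclins and kinases were open in every library except for 1 gap at Aurkb. Ccna2 (cyclin A, active from S phase into mitosis) ranked between 224 and 757 in all 19 libraries, at the end it shares with Bbs7. Ccnb1, a mitotic cyclin that activates Cdk1, ranked 1434 to 4800 (median 2712) in mutants on the diet, 1595, 1978, 1089 and 1555 in mutants, 3523, 3799, 2686, 2492 and 3076 in controls on the diet and 1844, 2021, 1898 and 2316 in controls. All 5 controls on the diet lay farther from the top than all 4 controls (difference -0.61, SE 0.32, adjusted p = 0.999). Against mutants, the mutants on the diet gave -0.81 (SE 0.30, adjusted p = 0.188), with overlap through mutant 4 on the diet. Ccnb2, the other B-type cyclin, ranked 9336, 9157, 12393, 9739 and 9252 in controls on the diet and 7735, 8999, 8274 and 6904 in controls (difference -0.32, SE 0.23, adjusted p = 0.999).

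Cdk1, the kinase that drives entry into mitosis, ranked 5229 to 7507 (median 6503.5) in mutants on the diet. It ranked 5805, 5130, 3167 and 6758 in mutants, 5621, 6678, 4338, 6019 and 3009 in controls on the diet and 5263, 3456, 5182 and 3871 in controls. Mutants on the diet and controls overlapped by 1 library, control 1, and the difference was -0.54 (SE 0.27, adjusted p = 0.470). Plk1, a kinase of centrosome maturation and mitotic exit, ranked 7806 to 16984 (median 9536) in mutants on the diet and 5875, 5240, 6189 and 5824 in controls, with no overlap (difference -0.79, SE 0.30, adjusted p = 0.336). It ranked 5516, 6506, 16845 and 14723 in mutants and 6394, 7766, 6441, 11059 and 10175 in controls on the diet, with the controls on the diet all farther from the top than the controls. Aurka, the centrosomal Aurora kinase, had a median rank of 3309 at the end shared with Cstf1. Aurkb, the Aurora kinase of the chromosomal passenger complex, had a matched gene-end summit in all libraries but mutant 5 on the diet. Its ranks were 10933 to 25483, and a further site 4474 bp from its nearer end was matched in 18 libraries.

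Among checkpoint genes, Cdc20, the activator of the anaphase-promoting complex, had a median rank of 2561, well above the checkpoint kinase Bub1 (12560) and the checkpoint protein Bub1b (10366.5). Bub1b had a gene-end summit in 6 of 6 mutants on the diet, 3 of 4 mutants, 4 of 5 controls on the diet and 3 of 4 controls, with none in mutant 4, control 5 on the diet and control 1 (exact p = 0.4 to 1). It did not enter the rank fit, which needs a gene-end summit in every library. Bub1 ranked 9738 to 21458 in mutants on the diet and 6827, 9295, 12560 and 11268 in controls, with overlap.

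Chromosome and spindle genes included the differences with the lowest p. Cenpa, the histone H3 variant of centromeres, ranked 7871 to 15398 (median 9407.5) in the 6 mutants on the diet and 6493, 5126, 6859 and 6025 in mutants. It ranked 8632, 8128, 7976, 7145 and 7470 in controls on the diet and 7380, 4551, 5562 and 5708 in controls. Mutants on the diet were all farther from the top than all mutants and all controls, while they overlapped with controls on the diet. The difference was -0.77 (SE 0.23, adjusted p = 0.115) from mutants, -0.86 (SE 0.23, adjusted p = 0.222) from controls and -0.41 (SE 0.22, adjusted p = 1) from controls on the diet. Without mutant 6 on the diet the first of these was -0.85 and passed, with an adjusted p of 0.0447, in a fit that called 321 of all genes.

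Cenpe, a kinetochore motor that moves chromosomes to the spindle equator, ranked 9486 to 21326 (median 16493.5) in mutants on the diet. It ranked 13618, 13970, 3755 and 3058 in mutants, 14439, 23818, 14224, 9875 and 9454 in controls on the diet and 15128, 15773, 12628 and 13611 in controls. The ranks of mutants 3 and 4 were the closest to the top of all 19 libraries, and mutants 1 and 2 lay among the controls. For mutants on the diet against mutants the difference was -1.18 (SE 0.37, adjusted p = 0.122), and the interaction was -1.25 (SE 0.53, adjusted p = 0.797). Without mutants 3 and 4, a choice made after seeing the data, the first of these was -0.17 (SE 0.32, adjusted p = 0.930), without mutant 2 it was -1.52 (adjusted p = 0.0249), and without mutant 1, whose labels conflict, -1.51 (adjusted p = 0.0284). The fits without mutant 2 and without mutant 1 called 502 and 312 of all genes in this contrast. Top2a, the topoisomerase that untangles sister chromatids, ranked 7584 to 10807 (median 10256) in mutants on the diet, 8099, 4965, 25371 and 17647 in mutants, 8552, 7505, 7486, 10279 and 5813 in controls on the diet and 5069, 4124, 5020 and 6611 in controls. Mutants on the diet were all farther from the top than all controls, by -0.91 (SE 0.32, adjusted p = 0.304), and mutants 3 and 4 were farther than any other library. The difference of mutants from controls was -1.17 (SE 0.35, adjusted p = 0.242) and, without mutants 3 and 4, -0.31 (SE 0.28, adjusted p = 1). Without mutant 2 it was -1.58 (adjusted p = 0.0185), in a fit that called 740 of all genes.

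Mki67, the proliferation marker that coats mitotic chromosomes, ranked 3305 to 11045 (median 7389) in mutants on the diet, 5367, 12168, 6089 and 4905 in mutants, 6644, 5863, 8745, 7691 and 7753 in controls on the diet and 8701, 5928, 11842 and 10471 in controls. All groups overlapped, with differences between -0.01 and 0.43 in the 5 contrasts and adjusted p of at least 0.532. The interval for mutants against controls ran from -0.26 to 1.12. Kif11, the motor that separates spindle poles, and Birc5 (survivin), of the chromosomal passenger complex, had median ranks of 3729 and 4327. Birc5 was farthest from the top in mutants 3 and 4, at 16350 and 10223.

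**Figure D4:**
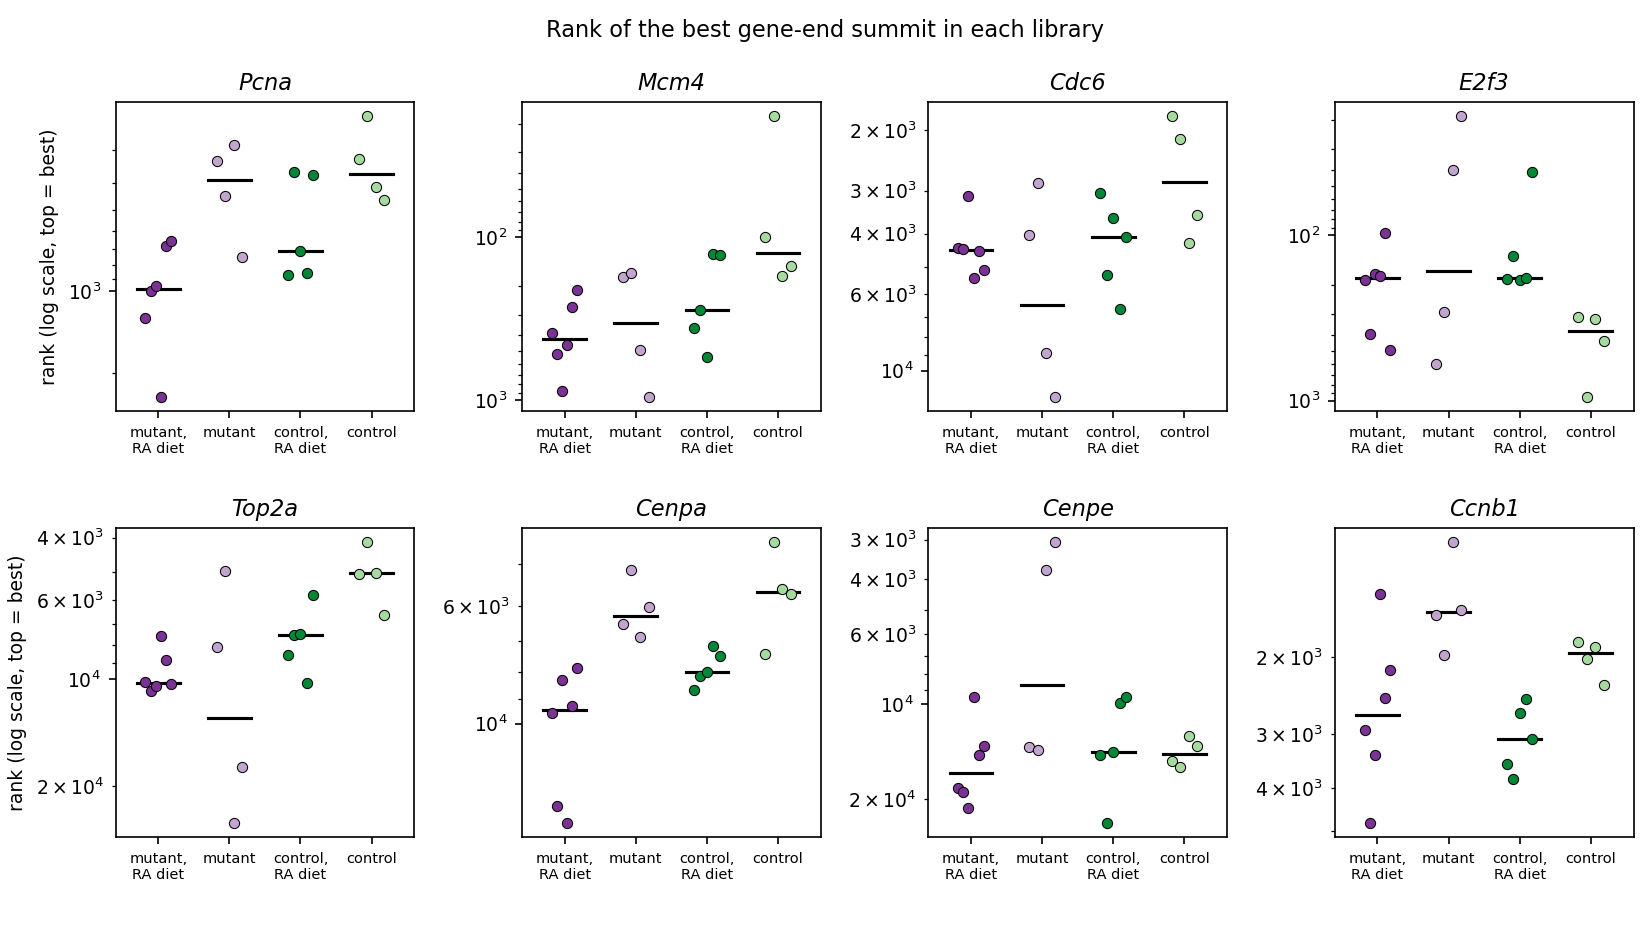
Rank of the best gene-end summit (y axis, log scale, the top of the list upward) in each library for 8 genes, with groups on the x axis, points for libraries and bars for medians. The Cenpa, Pcna, Mcm4 and Top2a points of the 6 mutants on the RA diet all lie below those of the 4 controls, and the 4 mutants are widely spread for Top2a, Cdc6, Cenpe and E2f3.

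Myc and Mycn, factors that drive growth and the cell cycle, had weaker gene-end summits than most of the set. Mycn is the main Myc gene of neural progenitors. Myc ranked 4370 to 13275 (median 9006.5) in mutants on the diet, 10088, 12430, 17057 and 12185 in mutants, 6582, 9547, 11166, 7607 and 6691 in controls on the diet and 11004, 9753, 11469 and 11735 in controls. Its largest difference was 0.52 (SE 0.27, adjusted p = 0.334), for mutants on the diet against mutants. Mycn ranked 10353 to 18087 (median 16133.5) in mutants on the diet, 8727, 12819, 12359 and 9489 in mutants, 12395, 20521, 17576, 15191 and 12842 in controls on the diet and 17458, 12551, 17879 and 12546 in controls. Between mutants on the diet and mutants, which overlapped, the difference was -0.48 (SE 0.23, adjusted p = 0.298). Its best summit moved between 2 places: at -72 to 51 bases from the start in 11 libraries and at -721 to -715 in 8.

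Of the 31 genes with a region, 16 had 1, while Mycn had 14, E2f2 and Mki67 5 each and Myc 4. Chaining matched summits up to 200 bp apart gave 70 regions whose nearest gene end belongs to the set, out of 44878 regions in all. Of the 70, 33 (47.1%) were seen in all 19 libraries, against 29.0% of all regions. Of the 31 regions within 1 kb of an end, 25 (80.6%) were in all libraries, against 53.7% of all end regions. Of the 39 regions farther away, 8 (20.5%) were, against 20.4% of all such regions. The 8 constant distal sites were 4 at Mycn (at 37.1, 64.1, 70.4 and -69.7 kb from its start), 1 at -12.7 kb from Kif11, 1 at -86.6 kb from Mki67, and 1 each at Mcm3 and Myc, 3805 and 10963 bp from the nearer end. The Mycn site at +37.1 kb, chr12:12904642-12904816, was the strongest of them, with a median rank of 806, while the best end summit of Mycn had a median rank of 13453.

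The number of matched summits per gene was compared too. Mycn had 5 to 11 matched summits per library, with means of 8.17 ± 2.04 in the 6 mutants on the diet, 8 ± 1.83 in the 4 mutants, 8.20 ± 0.837 in the 5 controls on the diet and 7.25 ± 1.26 in the 4 controls (all SD). Mki67 had 4.50 ± 1.05 in mutants on the diet, 4.25 ± 0.5 in mutants, 4.40 ± 0.548 in controls on the diet and 4 in every control (SD, with the same n). Myc had 3.50 ± 0.548 in mutants on the diet, 3.75 ± 0.5 in mutants, 2.80 ± 0.447 in controls on the diet and 3.50 ± 1.00 in controls. All groups overlapped for these 3 genes. In the limma fit of log2(summits + 0.5) over 10830 genes, which holds 29 of the set, 0 were called in any of the 6 contrasts. Mcm6, Bub1, Ccna2, Cdc20, Cenpa, Rrm1, Plk1, Cdt1, Ccnb2, Top2a, Birc5 and Ccnb1 had 1 matched summit in every library. For those genes this fit had no variation to test and could not call any. The share called over all genes was 0% for mutants against controls and for controls on the diet against controls, 0.0185% for mutants on the diet against mutants, 0.0277% for mutants on the diet against either control group and 0.00923% for the interaction. At an unadjusted p under 0.05 stood E2f1 for controls on the diet against controls (0.44, SE 0.18, adjusted p = 0.966) and Cdc6 for the interaction (0.61, SE 0.26, adjusted p = 1). E2f1 had 2 matched summits in 3 of 5 controls on the diet and 1 in every control, and over all deposited summits the sign of its difference turned (-0.34). The other named genes in this fit, Gmnn, Bub1b, Mcm5, Cdk1, Myc, E2f3 and Aurkb, had differences between -0.43 and 0.58 with adjusted p of at least 0.794.

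Single sites varied between groups, and the share of 44878 regions called was 0% in each of the 5 contrasts. Fisher's exact test can give no p below 0.0286 with 4 against 4 libraries, or below 0.00216 with 6 against 5. After adjustment over all regions, with as few at a low p as here, even full separation of 2 groups could not pass. The test therefore cannot decide whether a single site differs. A region at -52.1 kb from Mycn, chr12:12993778-12994087, had a matched summit in 5 of 6 mutants on the diet, 1 of 4 mutants, 3 of 5 controls on the diet and 0 of 4 controls. In mutants on the diet it ranked 16395 to 45254 (median 23480.5), and in controls 36882, 49719, 45787 and 56009, so that the groups overlapped through mutant 6 on the diet (exact p = 0.0476, adjusted p = 1, for mutants on the diet against controls). A region 47664 bp from Myc, chr15:62038022-62038028, had one in 4 of 6 mutants on the diet, 3 of 4 mutants, 0 of 5 controls on the diet and 3 of 4 controls (exact p = 0.0476 for controls on the diet against controls, adjusted p = 1). It ranked 33963, 37000, 36762, 32760 and 34398 in controls on the diet and 36339, 27750, 24264 and 28549 in controls, overlapping through control 1. At Rb1 the end region chr14:73326013-73326226 was matched in 4 of 6 mutants on the diet, 3 of 4 mutants, 2 of 5 controls on the diet and 0 of 4 controls (exact p = 0.0762 for mutants on the diet against controls, adjusted p = 1). A site at -19.5 kb from Mki67 was matched in 5 of 6 mutants on the diet, 1 of 4 mutants, 3 of 5 controls on the diet and 1 of 4 controls (exact p = 0.19 for mutants on the diet against controls, adjusted p = 1). For mutants on the diet against controls, 1235 of all regions stood at an unadjusted p under 0.05.

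**Figure D5:**
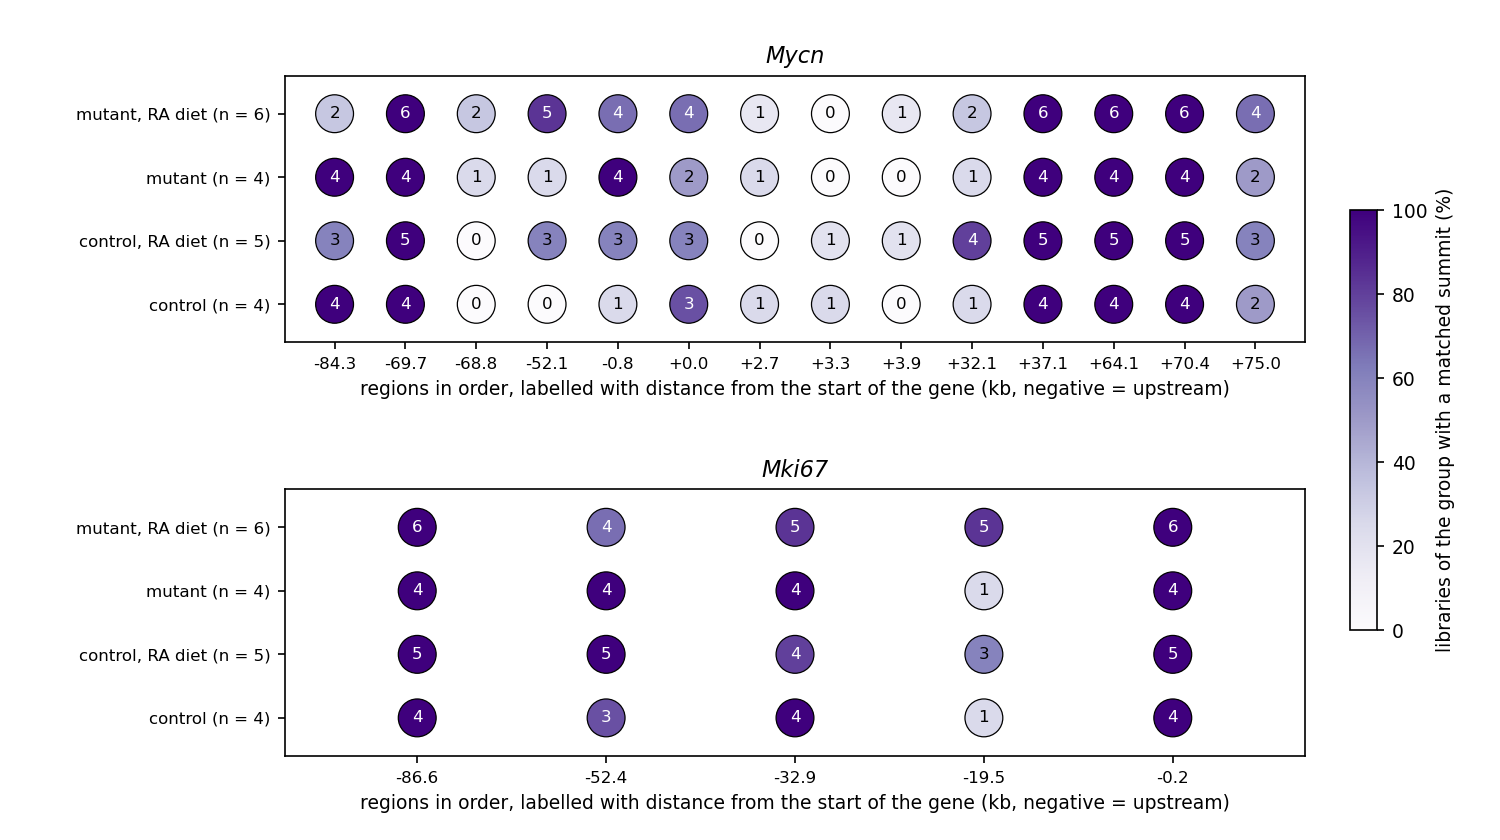
Number of libraries with a matched summit (figures in circles, colour as % of the group) in each region of Mycn and Mki67 (x axis, in order, labelled by distance from the start in kb), by group (rows). The Mycn regions at -69.7, +37.1, +64.1 and +70.4 kb and the Mki67 regions at -86.6 and -0.2 kb are full in all groups, while the Mycn region at -52.1 kb has 5, 1, 3 and 0 libraries from the top row down.

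Other replication and mitosis genes were mostly open too. Of 38 further replication genes (further origin, GINS, polymerase and clamp loader genes among them), 31 (81.6%) had a matched gene-end summit in all libraries. So had 35 (94.6%) of 37 further mitosis genes (kinetochore, kinesin and condensin genes among them), against 36.6% of all protein-coding genes. Of 15 further E2F, Rb, DREAM and Myc network genes it was 6 (40%), near the share of all genes. None of the 33, 36 and 9 of these that entered the rank fit was called in any contrast. For mutants on the diet against controls, 27 of 33 replication genes and 27 of 36 mitosis genes had negative differences (medians -0.31 and -0.37), against 3 of 9 network genes (median 0.16) and the median of -0.11 over all genes. The lists parted for mutants on the diet against mutants, with medians of 0.11, -0.08 and -0.15 for replication, mitosis and network genes, beside -0.24 for the 32 genes and 0.02 over all genes.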

How the data were processed

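Bulk ATAC-seq summit lists of 19 libraries were used as deposited, 1547369 summits in all. Per the submitters' processing notes, BWA, MACS2, Signac and DiffBind were named with the builds mm10 and GRCm38, without versions or settings here. The score of each summit is the -log10 q value that the authors' peak caller gave, and lists were made per library. Scores of libraries of unknown depth are not comparable, so ranks within a library were used in their place.

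Groups and replicate numbers follow the sample titles, also for the 4 controls without the diet, whose deposited lists are named with other numbers. A summit was given to the nearest end of a protein-coding gene of RefSeq's GRCm38.p6 table, within 100 kb, and a gene-end summit lay within 1 kb. Both ends count, since that table gives no strand. The log2 rank was fitted for 9438 genes with a gene-end summit in every library, and log2(matched summits + 0.5) for 10830 genes averaging 1 or more, with limma 3.58.1 (trend and robust) in R 4.3.3 over all 4 groups. Presence was compared by Fisher's exact test, two-sided. All p-values were adjusted by Benjamini-Hochberg over all genes or regions tested. Other steps used Python 3.11.15, numpy 2.4.6, pandas 2.3.3, scipy 1.17.1 and matplotlib 3.10.9, and the fits were tested on simulated data.

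Members and lists were chosen with earlier results of these data known. Full values are given for the 3 genes with the smallest p in each contrast of either fit, for genes with a gene-end summit in some libraries only, and for Mki67, Top2a, Pcna, Mcm2, Cdc6, Cdk1, Ccnb1, E2f1, Rb1, Myc and Mycn. Others were named for groups that do not overlap, after their values were seen. Alternatives changed the length of the lists, the windows, the filters, the pseudocount and the covariates, added a replicate block, and left out single libraries. Fits that left out several libraries together were added after seeing the data.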

Additional observations from a re-analysis of the deposited data

Results flagged for a closer look

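Within a group, a library was singled out where its gap to the nearest other value took up more of the group's range than Dixon's 95% critical value. Of 195 groups of values, 40 such libraries were found, 13 by rank and 27 by number of matched summits, and chance gives about 1 in 20 groups. Summit numbers are small whole numbers, in which 1 library with 1 summit more or fewer is enough.

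By rank, mutant 6 on the diet stood closer to the top for Cdt1 (3412), Gmnn (4362) and Rb1 (10212) and farther from it for Cdc45 (6558). Its likeness to mutant 1 across all genes was high (Spearman 0.934), and their ranks were alike for Rb1 (10520 in mutant 1) and Cdc45 (7293 in mutant 1). Mutant 3 on the diet was closer to the top for Cdc6 (3104), and mutant 4 on the diet farther from it for Plk1 (16984). Among controls on the diet, library 1 was closer to the top for Cdt1 (3389) and Ccna2 (486) and library 5 for E2f3 (41). Libraries 3 and 4 of that group were farther from it for Ccnb2 (12393) and Aurkb (22595). Among controls, library 2 was closer to the top for Rb1 (13904) and library 4 farther from it for Cdt1 (5683).

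By matched summits, mutant 4 on the diet had 2 for each of Mcm5, Gmnn, Tyms, E2f1 and Cenpe, and mutant 6 on the diet 2 for Mcm2 and Cdk1. Mutant 5 on the diet had 1 for Aurkb and 3 for Kif11. Mutant 1 had 2 for E2f3, and mutant 2 had 5 for Mki67, 0 for Rb1, 2 for Bub1b and 3 for Myc. Mutant 3 had 0 for Pcna and 2 for Mcm5, and mutant 4 had 0 for Rrm2. Control 1 on the diet had 3 for Kif11 and 2 for Myc, control 4 on the diet 0 for Pcna and control 5 on the diet 2 for Gmnn. Control 1 had 0 for Bub1b, 3 for Kif11 and 2 for Myc, and control 2 had 0 for Pcna, 2 for Mcm3 and 1 for Rb1. A 0 for Pcna means only that the summit lay nearer to the end of Cds2.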

How the results depend on the processing

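Over all alternatives, 546 counts of members called stayed at 0 and 8 did not, all 8 in the rank fit. Those at 0 include Fisher's exact tests on presence, which could not pass even at full separation. Such a 0 does not show that a result is stable. By rank, 3 members passed for mutants against controls without mutant 2 (Cenpe 1.40, Cdc6 -1.44 and Top2a -1.58), with 740 of all 9438 genes. For mutants on the diet against mutants, 1 member passed without mutant 6 on the diet (Cenpa -0.85, with 321 of all genes), without mutant 1 (Cenpe -1.51, with 312), without mutant 2 (Cenpe -1.52, with 502) and with summit number as a covariate (Cenpe -1.64, with 196). In that contrast, leaving out mutant 1, mutant 6 on the diet, control 2 and control 2 on the diet gave 2 members. These were Cenpe (-1.55) and Cenpa (-0.88), with 598 of all genes. Without mutants 3 and 4, 1 passed for mutants on the diet against controls (Top2a -0.91), with 86. Both of these choices of libraries were made after seeing the data. Leaving out 1 library at a time thus gave 0 to 3 members, and 0 to 740 of all genes. Calls over all genes in the other settings numbered 0 to 598 by rank and 0 to 8 by summits per gene, and 0 to 13 by summits per gene with 1 library left out. The cause of these changes was not tested.

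With a replicate block by the titles' numbers, 2 members passed for mutants on the diet against mutants (Pcna -1.63, adjusted p = 0.0326, and Cenpe -1.30, adjusted p = 0.0319, by limma), with 255 of all genes, and 0 in the other contrasts. In the names of the deposited data, all 4 controls without the diet carry a number 1 higher than in their titles, so the block rests on the titles' numbering, and no block by the other numbering was run. By the titles' numbers, 9 of 25 same-numbered pairs had a correlation of deviations over 0.1 (-0.33 to 0.44). Of 19 libraries, 5 correlated best with their own number. The check used this numbering alone, so it cannot decide whether the numbers pair the libraries.

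Of the named members' differences, 9 changed sign, all in summits per gene. Over all deposited summits these were Bub1b in mutants against controls (-0.12), E2f1 in controls on the diet against controls (-0.34), Cdc6 in mutants on the diet against mutants (-0.0207), E2f1 (0.14), Myc (-0.34) and E2f3 (-0.0744) in mutants against controls, both on the diet, and E2f3 in mutants on the diet against controls (-0.68). Over gene bodies with 5 kb on both sides they were Mcm5 in mutants on the diet against controls (0.12) and Aurkb in the interaction (0.021). Read depth is unknown, and ranks in short lists rest on fewer summits.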
